A study of Homo sapiens with 101 samples.

Results

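The 9 genes described here encode transcription factors of the ETS family. They are ETV1, ETV4 and ETV5, which form the PEA3 group, ETS1 and ETS2, ELK1 and ELK3, and the epithelial factors EHF and ELF3. They were taken by gene symbol from 19775 genes on the array, and each is represented by the brightest of its probe sets over all arrays, 9 of the 32 probe sets that carry these symbols. All 9 were measured on all 101 arrays, and no filter on dim values was used.

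The arrays hold total RNA of SW620 and SW480, a pair of established human colorectal cancer cell lines, SW620 derived from a lymph node metastasis and SW480 from the primary tumour of one patient. Per the labels, each line received a short hairpin RNA against CDK5 (a cyclin-dependent kinase), HRAS (a RAS GTPase), MAP2K1 or MAP2K2 (the MEK kinases), MAPK3 (an ERK kinase) or NGFR (a neurotrophin receptor), a non-target hairpin, an empty vector, or no vector. These 9 treatments in 2 lines give 18 groups, of which 15 held 6 arrays, the CDK5 knockdown in SW620 held 5, and each group of non-transduced cells held 3. The knockdowns were made to learn which genes respond to loss of RAS pathway components, as a check on a computed gene network. The sample names of the HRAS knockdown carry different hairpin codes in replicate 1 and in replicates 3 to 6, with no code in replicate 2. The labels do not say how the knockdown cells were selected or whether they were pools or clones. Non-target and empty vector arrays together, 12 in each line, served as the controls of all 6 knockdowns of that line, so the 6 comparisons of a line share their controls.

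ETS factors share a winged helix-turn-helix domain that binds DNA around the core GGAA. Several of them stand at the end of the RAS, RAF, MEK and ERK cascade: ELK1 and ELK3 are ternary complex factors that bind beside serum response factor and are phosphorylated by ERK, and ETS1 and ETS2 are phosphorylated by ERK near a Pointed domain. The PEA3 genes are themselves switched on by ERK signalling, which relieves their repression by CIC, and their proteins are degraded through the COP1 and DET1 ubiquitin ligase. EHF and ELF3 are ETS factors of epithelia, and ELF3 is needed for differentiation of the intestinal epithelium in mice.

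Values are log2 RMA levels, and a change is a fitted log2 difference ± its standard error. Unless stated otherwise, a change comes from one limma fit over all arrays with a term for label series, meaning the style of the sample names (replicate 1, replicate 2, replicates 3 to 6, replicate 7). A gene is called higher or lower when its Benjamini-Hochberg adjusted p over all 19775 genes is under 0.05. The label series differed strongly: the median SD of ETV1 was 0.09 within replicates 3 to 6 of a group and 1.06 over all replicates of a group, and the same medians for ELK3 were 0.06 and 1.14. The labels number replicates 3 to 6 as biological replicates, but do not say whether the endings of their names (A1 to B2) mark separate cultures, so p-values may reflect a spread that is partly technical. On 3 SW620 arrays (replicate 2 of the MAP2K1 and MAPK3 knockdowns and replicate 1 of the NGFR knockdown) the GAPDH probe sets of the 3′ and 5′ ends differed by 2.95 to 6.04, against 0.05 to 1.47 on the others. These are called the arrays of degraded RNA below. On 3 SW480 arrays (replicate 1 of the MAP2K1, MAP2K2 and MAPK3 knockdowns) a score of genes that differ between the lines lay towards SW620, at -1.40 to 1.13, against -3.97 to -2.60 on the other SW480 arrays. The mean level of 8 colorectal epithelium markers was 8.27 to 10.31 over all arrays, and that of 5 fibroblast, 3 leukocyte and 3 endothelium markers was 4.96 to 6.63, 4.14 to 5.68 and 4.49 to 5.56. Where called, each targeted gene stood at 9.25% to 80.2% of its controls in its own knockdown, and the one not called was NGFR in SW620 (69.8%, adjusted p = 0.136). Among the called ones, MAPK3 was lowered least, to 66.4% in SW620 and 80.2% in SW480. For NGFR in SW620, knockdown below names the cells with the hairpin, not a called loss of NGFR.

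The clearest contrast in the family was between the lines. Among vector controls, 7 of the 9 genes differed between SW620 and SW480, against 47.1% of all genes in that comparison. EHF, ETV1, ELF3 and ETS2 were higher in SW620, and ELK3, ETV4 and ETV5 were lower in SW620, while ETS1 (-0.05 ± 0.19) and ELK1 (-0.01 ± 0.07) were not called.

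EHF showed the largest of these 9 differences. Its lowest, median and highest levels were 7.67, 10.85 and 11.12 on the 12 SW620 control arrays and 5.97, 6.49 and 7.61 on the 12 SW480 control arrays. Every SW620 control array was thus above every SW480 control array, but in replicate 2 by little. The fitted difference was 3.43 ± 0.34, or 10.8-fold (adjusted p = 1.0e-14), and it was 4.52 in replicates 3 to 6, 1.97 in replicate 1 and 0.56 in replicate 2. All 5 other EHF probe sets were called in the same direction, with differences of 0.89 to 2.69. In non-transduced cells, EHF was at 8.00 in SW620 and 6.69 in SW480 in replicate 1, and at 8.54 and 6.39 in replicate 2. In replicate 7 the order was the other way, with 9.56 in SW620 and 9.82 in SW480.

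ETV1 was at 6.08, 8.74 and 9.05 (lowest, median, highest) in SW620 controls and at 5.25, 6.59 and 7.59 in SW480 controls. Within each label series its SW620 controls lay above its SW480 controls, and the difference was 1.52 ± 0.20, or 2.87-fold (adjusted p = 5.77e-10). All 4 other ETV1 probe sets were called in the same direction, but with smaller differences of 0.53 to 0.70. ELF3 was at 7.10, 7.60 and 8.45 in SW620 and at 6.08, 6.33 and 7.33 in SW480, a difference of 1.13 ± 0.15 (adjusted p = 2.17e-10). In replicate 1 the non-target arrays went the other way for ELF3, with 7.10 in SW620 and 7.32 in SW480. ETS2 was 1.55-fold higher in SW620 (0.63 ± 0.14, adjusted p = 0.000107).

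ELK3, a ternary complex factor that can repress serum response genes, was the member most reduced in SW620. Its lowest, median and highest levels were 5.80, 9.06 and 9.18 in SW620 controls and 8.37, 9.94 and 10.28 in SW480 controls, with no overlap within any label series. The fitted difference was -1.36 ± 0.19 (adjusted p = 2.33e-09), and it was -2.24, -2.08 and -0.97 in replicate 1, replicate 2 and replicates 3 to 6. ETV4 was lower in SW620 by a similar amount in each label series (-0.68, -0.44 and -0.58; fitted -0.57 ± 0.15, adjusted p = 0.000632). ETV5 was lower in SW620 (-0.29 ± 0.11, adjusted p = 0.027), but the difference was -0.06 in replicates 3 to 6, and it was not called when its 5 probe sets were averaged (-0.01, adjusted p = 0.939).

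Across the knockdowns, nearly all calls in SW620 were lower, and those in SW480 went both ways. In SW620, 20 of the 54 tests (9 genes in 6 knockdowns) were called, 19 lower and 1 higher, against 25.6% of all tests in that line, with 13.6% lower. In SW480, 9 of 54 were called, 5 lower and 4 higher, against 13.4% of all tests there, with 7.32% lower. By gene, ETV1 and ETV4 fell in 6 of the 12 knockdown comparisons each, ETS2 was called in 4, ETS1, ELK3 and ELF3 in 3 each, ETV5 in 2, and ELK1 and EHF in 1 each. The median change of the 9 genes lay between -0.50 and -0.23 in the 6 SW620 knockdowns, where that of all genes lay between -0.01 and 0.01, and between -0.04 and 0.03 in the 6 SW480 knockdowns. The SW620 count depends on the model, with 2 calls when label series was not fitted and 9 when arrays were averaged in pairs by name ending.

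**Figure D1:**
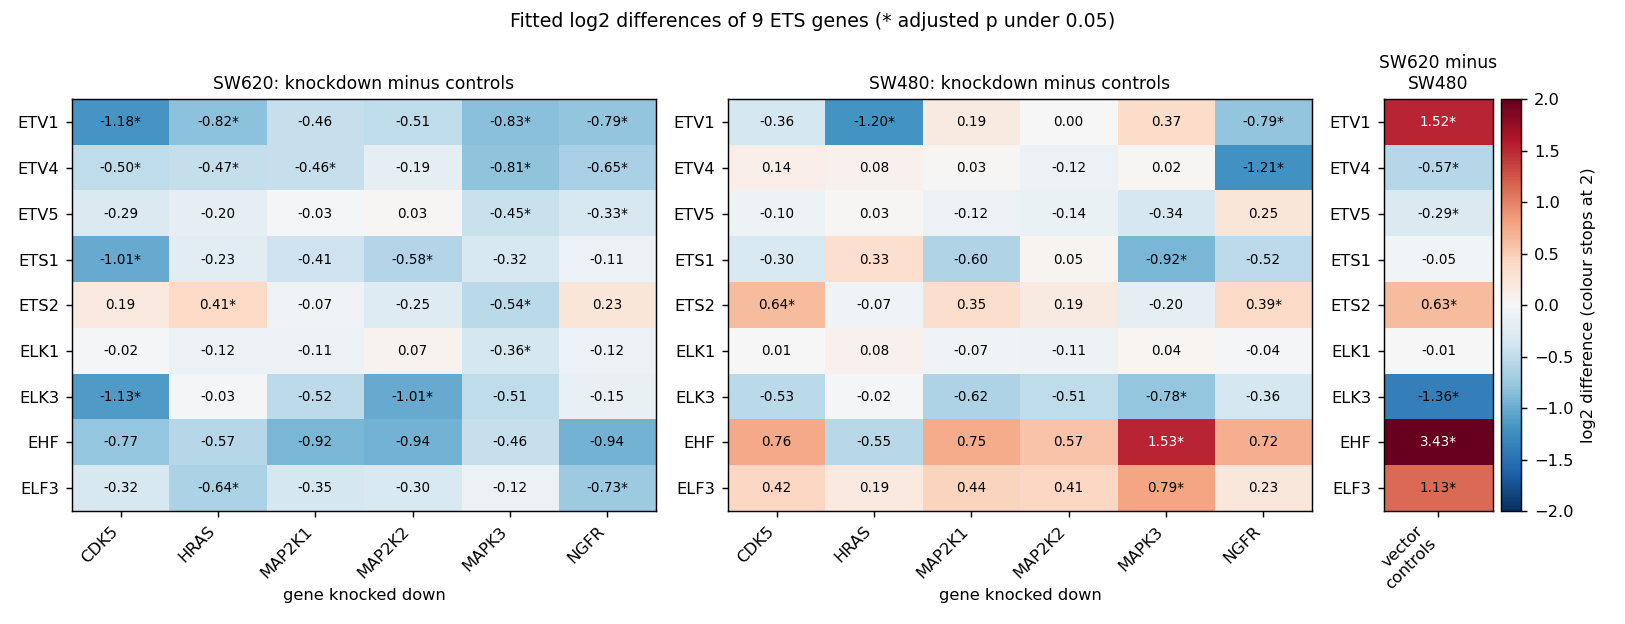
Fitted log2 differences of the 9 genes (down) for each gene knocked down (across) in SW620 (left) and SW480 (middle), knockdown minus vector controls, and for SW620 minus SW480 vector controls (right). Colour gives the same value as the number in each cell and stops at 2, and an asterisk marks an adjusted limma p under 0.05. ETV4 and ETV1 have 5 and 4 of the 20 calls in SW620, and the row of EHF is negative in SW620 and, except with HRAS knocked down, positive in SW480.

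By knockdown, the calls in SW620 numbered 5 of 9 for MAPK3 (29.8% of all genes called), the hairpin whose called target was lowered least, 4 for CDK5 (24.0%), HRAS (31.0%) and NGFR (26.3%), 2 for MAP2K2 (23.2%) and 1 for MAP2K1 (19.1%). In SW480 they numbered 4 for MAPK3 (10.7%), 3 for NGFR (24.0%), 1 each for CDK5 (8.06%) and HRAS (26.2%), and 0 for MAP2K1 (6.54%) and MAP2K2 (5.17%). For those counts of 0 from limma, 4 and 2 of the 9 genes had an unadjusted p under 0.05.

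The PEA3 genes are described first, because ETV1 and ETV4 had the most calls of the 9 genes. The start region of ETV1 is shown as the one PEA3 promoter in the RefSeq table used here (build GRCh38.p14), 250 bases before to 50 after the 5′-most start, chr7:13991376-13991675, minus strand. Capitals mark GGAA or its complement TTCC.
ETV1: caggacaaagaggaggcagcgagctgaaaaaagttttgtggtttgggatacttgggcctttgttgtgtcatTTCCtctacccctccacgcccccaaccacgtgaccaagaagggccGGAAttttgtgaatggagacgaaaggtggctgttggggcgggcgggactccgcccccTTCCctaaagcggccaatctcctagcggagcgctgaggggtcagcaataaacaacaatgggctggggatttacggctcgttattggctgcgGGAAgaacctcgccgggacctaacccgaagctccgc
The ETV1 window holds 4 such matches over both strands. GGAA occurs in 95.5% of all 35116 windows of this length and a window holds 3.51 matches on average. The longer ETS site CCGGAA occurs 1 time in it, against 17.2% of windows with any match, and one of the matches to GGAA lies inside it. The octamer TGAATGGA, bound by CIC, occurs 1 time, against 1.03% of windows, and the related octamer TGAATGAA (1.65% of windows) does not occur. All motifs were searched on both strands, and a match is a run of letters, not evidence of binding.

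ETV1 fell in SW620 with CDK5, HRAS, MAPK3 or NGFR knocked down. With the CDK5 hairpin it was at 5.03, 7.78, 7.65, 7.82 and 7.72 in SW620 (replicates 2 to 6), against 6.75 in both controls of replicate 2 and 8.69 to 9.05 in the controls of replicates 3 to 6. All 5 arrays lay below all controls of their label series. The change was -1.18 ± 0.23, to 44.3% of the controls (adjusted p = 6.16e-05).

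The ETV1 changes with the other hairpins in SW620 were smaller. MAPK3 knockdown gave 5.79, 6.12, 8.00, 7.80, 7.81 and 7.93 (replicates 1 to 6), each below the controls of its series (6.08 and 6.36 in replicate 1), and a change of -0.83 ± 0.22 (adjusted p = 0.00191). HRAS knockdown gave -0.82 ± 0.22 (adjusted p = 0.0019), with replicate 1 at 6.27 inside its controls and replicate 2 at 5.12 far below them. NGFR knockdown gave -0.79 ± 0.22 (adjusted p = 0.00423), carried by replicates 1 and 2, at 4.75 and 4.81, while replicates 3 to 6 were at 8.44 to 8.64, and replicate 1 is an array of degraded RNA. Without the arrays of degraded RNA the NGFR change was -0.54 (adjusted p = 0.0571). MAP2K1 (-0.46 ± 0.22) and MAP2K2 (-0.51 ± 0.22) knockdowns were not called.

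In SW480, ETV1 was lower with HRAS or NGFR knocked down. HRAS knockdown arrays were at 4.44, 4.26, 5.24, 5.32, 6.21 and 6.63 (replicates 1 to 6), against SW480 controls of 5.70 and 6.01 in replicate 1, 5.25 and 5.33 in replicate 2 and 6.45 to 7.59 in replicates 3 to 6. Only replicate 6 reached the range of its controls, and replicates 3 and 4 stood about a log2 unit below replicates 5 and 6. The GAPDH probe sets of the 3′ and 5′ ends differed by 1.39 and 1.47 in replicates 3 and 4. In replicates 5 and 6 they differed by 0.41 and 0.32. Replicates 3 and 4 are not counted among the arrays of degraded RNA, and the part of RNA quality in this split was not tested. The change was -1.20 ± 0.22, to 43.4% (adjusted p = 7.89e-06). NGFR knockdown gave 4.24, 3.93, 6.62, 6.43, 6.76 and 6.58 and a change of -0.79 ± 0.22 (adjusted p = 0.00362).

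The 5 probe sets of ETV1 did not agree in SW480. The brightest one correlated with the other 4 at -0.16 to 0.02 over 101 arrays and at 0.44 to 0.56 after group and label series were fitted, a description over arrays that share lines and series. In SW620 the other probe sets changed by -0.56 to -0.19 over the 6 knockdowns, and 20 of 24 such values were called lower. In SW480 with HRAS knocked down the others changed by -0.21 to -0.19 and with NGFR knocked down by -0.18 to 0.03, and none of these was called. The mean of all 5 probe sets kept the HRAS call in SW480 (-0.40, adjusted p = 0.00194) but not the NGFR call (-0.20, adjusted p = 0.167).

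ETV4 fell by a similar amount in every label series in SW480 with NGFR knocked down. The 6 knockdown arrays were at 8.41, 8.01, 6.94, 6.96, 6.97 and 6.95, against SW480 controls of 9.63 and 9.67 in replicate 1, 9.30 and 9.36 in replicate 2 and 8.09 to 8.18 in replicates 3 to 6. Every knockdown array lay over a log2 unit below the controls of its label series. The change was -1.21 ± 0.17, to 43.2% (adjusted p = 1.92e-08), and it was -1.24, -1.32 and -1.18 in replicate 1, replicate 2 and replicates 3 to 6. The second ETV4 probe set changed by -1.13 ± 0.28 (adjusted p = 0.00104), and the pair correlated at 0.95 over the arrays. No other knockdown moved ETV4 past the threshold in SW480, with changes of -0.12 to 0.14.

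In SW620, ETV4 fell with 5 of the 6 hairpins. NGFR knockdown arrays were at 7.59, 8.00, 7.03, 7.27, 7.18 and 7.09, against controls of 8.95 and 8.99, 8.88 and 8.90, and 7.35 to 7.74, with no overlap within a series (-0.65 ± 0.17, adjusted p = 0.00227). Replicate 1, at 7.59, is an array of degraded RNA, and without such arrays the change was -0.47 (adjusted p = 1.38e-05). CDK5 (-0.50 ± 0.18, adjusted p = 0.0351) and HRAS (-0.47 ± 0.17, adjusted p = 0.0268) knockdown arrays also lay below the controls of their series. The second ETV4 probe set changed by -0.67 and -0.64 in these comparisons and was not called. Of 20 alternative settings of the analysis, the CDK5 call was lost in 11 and the HRAS call in 9. MAPK3 knockdown had the largest fitted change (-0.81 ± 0.17, adjusted p = 0.00012), but its replicate 2, an array of degraded RNA, was at 6.20, and without the arrays of degraded RNA the change was -0.45 (adjusted p = 1.89e-05). The MAP2K1 call (-0.46 ± 0.17, adjusted p = 0.0436) rests on another array of degraded RNA, at 6.36 in replicate 2, and was -0.07 (adjusted p = 0.666) without such arrays and missed the threshold with a replicate block (adjusted p = 0.0573). MAP2K2 knockdown (-0.19 ± 0.17) was not called.

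ETV5 moved least of the PEA3 genes. In SW620 it fell with MAPK3 knocked down (-0.45 ± 0.13, adjusted p = 0.00402) and with NGFR knocked down (-0.33 ± 0.13, adjusted p = 0.0454). For MAPK3 the arrays were at 9.20, 7.82, 9.54, 9.56, 9.67 and 9.67, against controls of 9.54 and 9.61, 8.90 and 9.01, and 9.79 to 10.03. All lay below the controls of their series. The array at 7.82 is one of degraded RNA, and without such arrays the change was -0.30 (adjusted p = 0.0587). Of the 4 other ETV5 probe sets, 2 were also called lower in this comparison and 1 was called higher (0.40). With NGFR knocked down, replicate 1, at 9.79, was above its controls and the others below theirs, and the call missed the threshold with a replicate block (adjusted p = 0.0579). In SW480 no hairpin moved the brightest ETV5 probe set past the threshold. With NGFR knocked down it changed by 0.25, while 3 of the other 4 probe sets rose by 1.09 ± 0.19, 0.66 ± 0.21 and 0.59 ± 0.19 (adjusted p = 2.6e-06, 0.0168 and 0.0153), so in those SW480 cells ETV4 was lower while most ETV5 probe sets were higher.

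**Figure D2:**
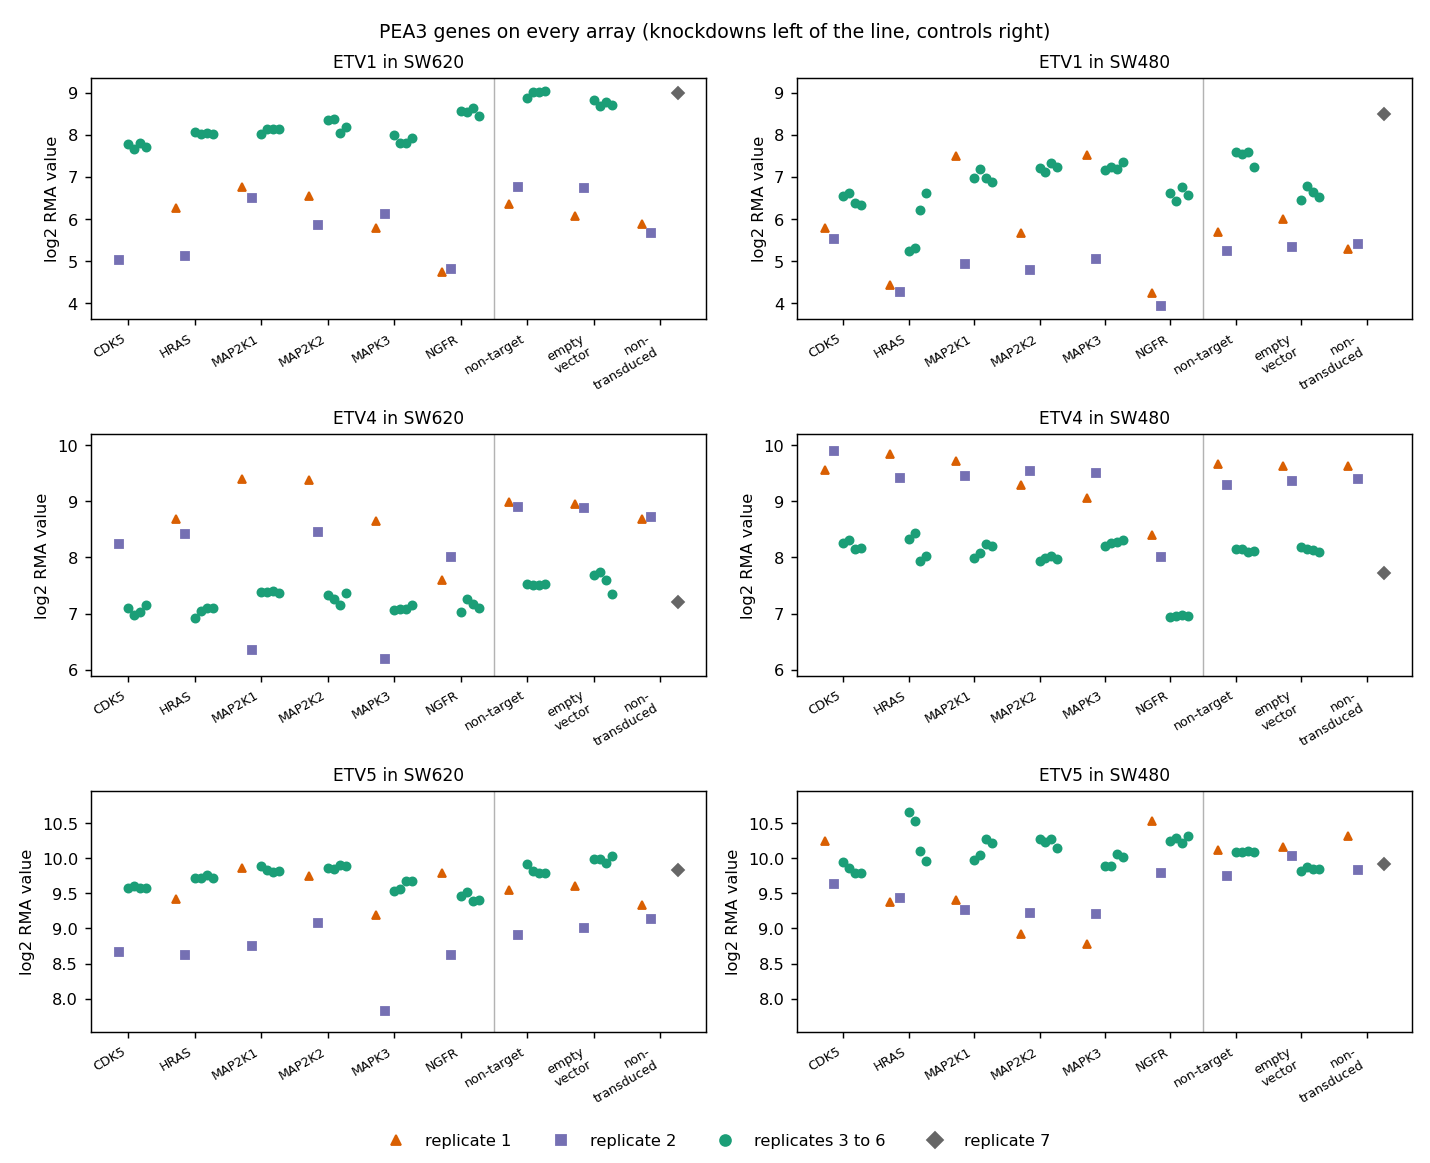
Log2 RMA level of ETV1, ETV4 and ETV5 on every array (points) by treatment, with the 6 knockdowns left and the 3 kinds of control right of the grey line, in SW620 (left) and SW480 (right). Marker shape and colour give the replicate number. ETV4 under NGFR knockdown in SW480 lies below the controls in each label series, and the 2 low ETV4 arrays of replicate 2 in SW620, at 6.36 and 6.20, are arrays of degraded RNA.

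ETS1 and ELK3 were both called lower in 3 comparisons. In SW620 with CDK5 knocked down, ETS1 was at 6.75, 9.06, 8.89, 9.05 and 9.02 (replicates 2 to 6), against 8.77 and 9.12 in the controls of replicate 2 and 9.76 to 10.06 in those of replicates 3 to 6. ELK3 on the same arrays was at 4.58, 8.15, 7.98, 8.13 and 7.97, against 6.27 and 6.70 and 9.05 to 9.18. Neither gene overlapped the controls of its series, and the changes were -1.01 ± 0.24 for ETS1 (adjusted p = 0.000791) and -1.13 ± 0.25 for ELK3 (adjusted p = 0.000318). No other probe set of either gene was called in that comparison, with changes of -0.58 and -0.04 for ETS1 and -0.27 for ELK3. With MAP2K2 knocked down in SW620, ELK3 was at 6.01, 5.48, 8.01, 8.01, 7.78 and 8.00, with replicate 1 inside its controls of 5.80 and 7.06 and the others below theirs (-1.01 ± 0.23, adjusted p = 0.000586). ETS1 changed there by -0.58 ± 0.22 (adjusted p = 0.0484), which missed the threshold with a replicate block (adjusted p = 0.0621) and was -0.185 (adjusted p = 0.462) when its probe sets were averaged.

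In SW480, ETS1 and ELK3 were called with MAPK3 knocked down. ETS1 was at 5.51, 7.86, 9.39, 9.57, 9.43 and 9.57, against controls of 8.51 and 9.11, 8.03 and 8.13, and 9.89 to 10.10 (-0.92 ± 0.22, adjusted p = 0.00228). ELK3 was at 6.87, 7.31, 9.64, 9.68, 9.73 and 9.65, against 8.60 and 8.73, 8.37 and 8.76, and 9.91 to 10.28 (-0.78 ± 0.23, adjusted p = 0.0173). All knockdown arrays lay below the controls of their series, and the lowest of each is replicate 1, one of the SW480 arrays whose line score lies towards SW620. Without those 3 arrays the changes were -0.45 (adjusted p = 0.107) for ETS1 and -0.54 (adjusted p = 0.149) for ELK3. The second ELK3 probe set was called lower there as well (-0.53 ± 0.11, adjusted p = 0.000318).

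ETS2 was the member that rose most often. In SW480 with CDK5 knocked down it was at 8.67, 6.98, 9.40, 9.43, 9.31 and 9.39, against controls of 6.69 and 7.11, 7.03 and 7.20, and 8.75 to 8.92 (0.64 ± 0.14, adjusted p = 0.000746). Replicate 2 was the exception, just below its controls. ETS2 also rose with NGFR knocked down in SW480 (0.39 ± 0.14, adjusted p = 0.0306) and with HRAS knocked down in SW620 (0.41 ± 0.14, adjusted p = 0.0185), in both cases with every array above the controls of its series. It fell with MAPK3 knocked down in SW620, where it was at 7.08, 7.85, 8.75, 8.76, 8.73 and 8.75 against 7.68 and 7.70, 8.39 and 8.53, and 9.17 to 9.37 (-0.54 ± 0.14, adjusted p = 0.00177). Of the 2 other ETS2 probe sets, 1 was called higher with CDK5 (-0.01 and 0.60) and 1 with NGFR (0.06 and 0.55) in SW480. Neither was called in SW620 with HRAS (0.07 and 0.46) or MAPK3 (-0.44 and -0.001). The HRAS call in SW620 and the NGFR call in SW480 were each lost in 8 of 20 alternative settings.

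ELK1, whose protein is a classic ERK substrate, hardly varied. Its residual SD was 0.17, the smallest of the 9 genes, and its 11 other knockdown changes lay between -0.12 and 0.08. The exception was MAPK3 knockdown in SW620, at 9.16, 8.49, 8.46, 8.32, 8.52 and 8.44 against controls of 9.36 and 9.41, 9.64 and 9.71, and 8.54 to 8.69 (-0.36 ± 0.09, adjusted p = 0.00108). Replicate 2, at 8.49, is the array of degraded RNA, and without such arrays the change was -0.20 (adjusted p = 0.0101).

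**Figure D3:**
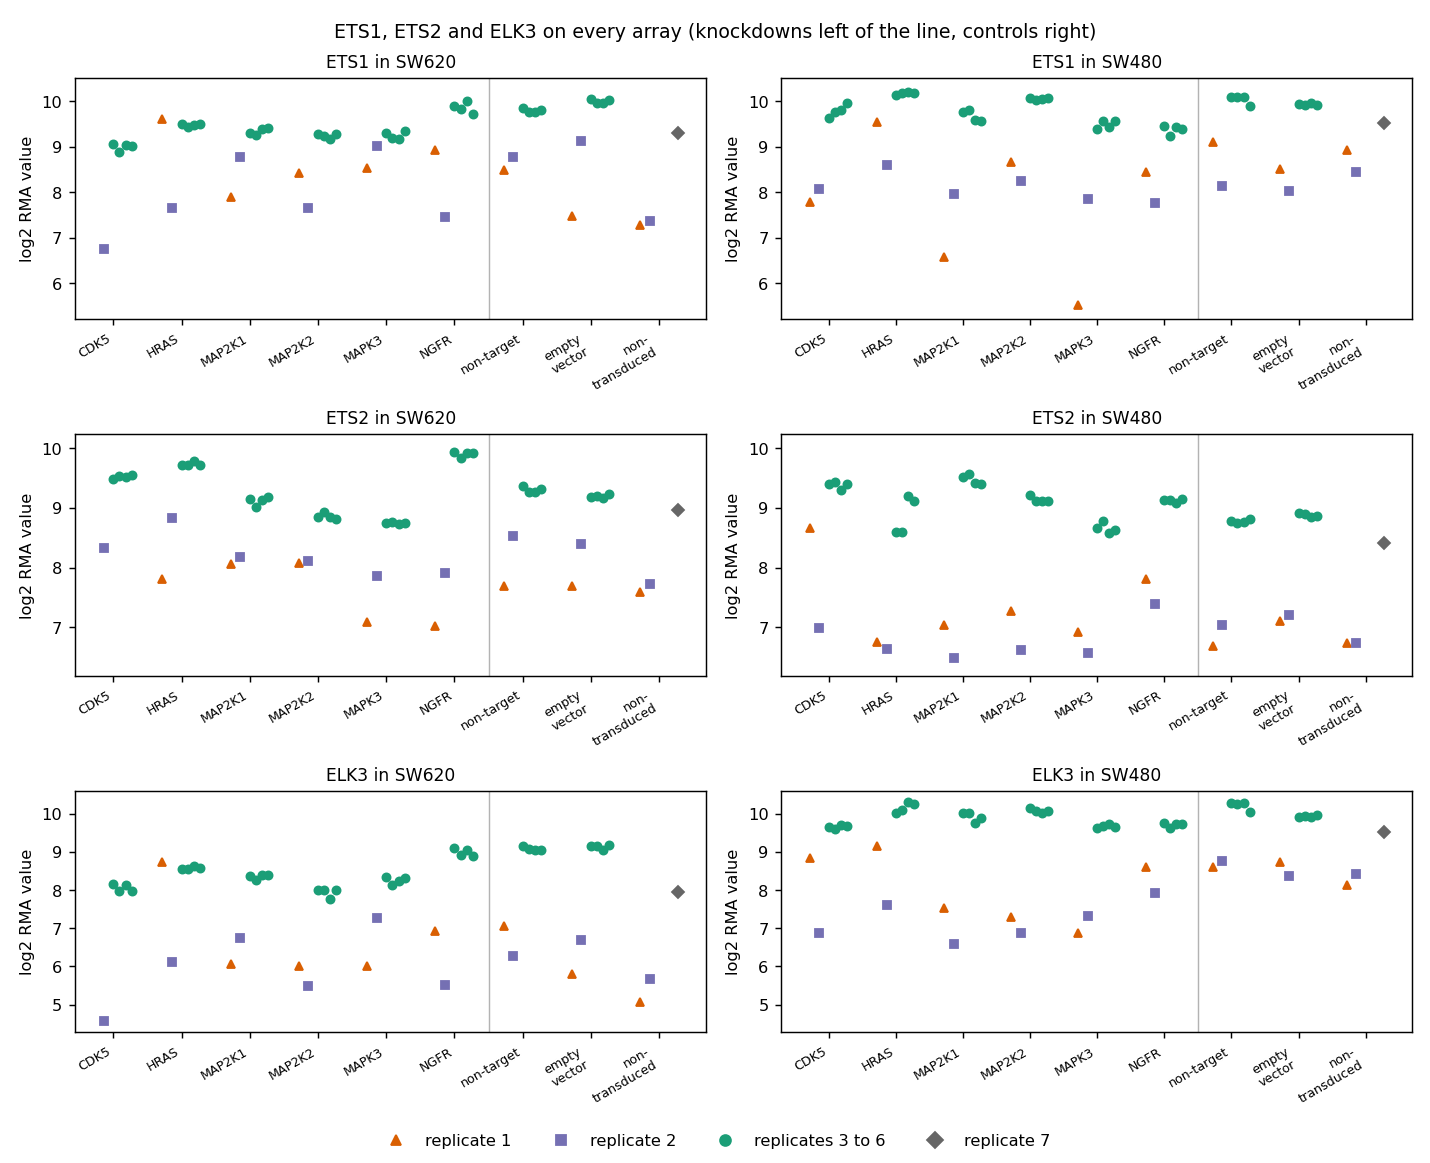
Log2 RMA level of ETS1, ETS2 and ELK3 on every array by treatment, with knockdowns left and controls right of the grey line, in SW620 (left) and SW480 (right). Marker shape and colour give the replicate number. Most arrays of replicates 1 and 2 lie below replicates 3 to 6 of their group, with replicate 1 of HRAS knockdown in SW620 above them for ETS1 (9.62) and ELK3 (8.73), and ELK3 under CDK5 knockdown in SW620 (4.58 in replicate 2, 7.97 to 8.15 in replicates 3 to 6) lies below its controls.

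ELF3 was called lower in SW620 with HRAS or NGFR knocked down, and both EHF and ELF3 were called higher in SW480 with MAPK3 knocked down. Their start regions are shown because both genes differed between the lines and between the responses of the lines. Capitals again mark GGAA or TTCC in windows of the same kind, EHF at chr11:34624007-34624306, plus strand, and ELF3 at chr1:202010337-202010636, plus strand.
EHF: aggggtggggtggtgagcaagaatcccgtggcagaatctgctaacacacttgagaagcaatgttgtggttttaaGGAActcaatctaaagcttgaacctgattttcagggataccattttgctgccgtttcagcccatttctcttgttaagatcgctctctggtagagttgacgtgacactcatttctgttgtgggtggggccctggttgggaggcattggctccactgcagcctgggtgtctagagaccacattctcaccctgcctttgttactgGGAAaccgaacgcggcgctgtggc
ELF3: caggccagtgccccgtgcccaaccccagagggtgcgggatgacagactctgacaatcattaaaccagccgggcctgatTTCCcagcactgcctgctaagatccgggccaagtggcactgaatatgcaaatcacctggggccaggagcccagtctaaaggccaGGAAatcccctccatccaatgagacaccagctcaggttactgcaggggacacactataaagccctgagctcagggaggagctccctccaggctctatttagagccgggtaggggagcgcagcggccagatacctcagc
Each of these windows holds 2 matches, and neither holds CCGGAA, TGAATGGA or TGAATGAA.

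ELF3 fell in SW620 with the NGFR or the HRAS hairpin, although NGFR itself was not called lower there. NGFR knockdown arrays were at 6.86, 7.39, 6.88, 7.04, 6.86 and 6.81, against controls of 7.10 and 8.05, 8.26 and 8.45, and 7.48 to 7.69 (-0.73 ± 0.17, to 60.3%, adjusted p = 0.000537). HRAS knockdown arrays were at 7.09, 7.61, 7.04, 6.95, 6.84 and 6.86 (-0.64 ± 0.17, to 64.3%, adjusted p = 0.00171). Each array lay below the controls of its series, for replicate 1 of HRAS only just, and replicate 1 of NGFR is an array of degraded RNA. Both other ELF3 probe sets were called lower in these comparisons, with changes of -0.88 to -0.54.

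Of the 8 markers of colorectal epithelium, 6 were called lower with HRAS and 1 with NGFR knocked down in SW620. Of all genes, 31.0% and 26.3% were called in these comparisons, in either direction. Their mean level was 8.65 to 9.34 over the HRAS knockdown arrays of SW620, 8.90 to 9.68 over the NGFR knockdown arrays and 9.54 to 10.02 over the SW620 controls. Over the 6 SW620 knockdowns, 18 of 48 tests of these markers were lower and 1 higher. That is 39.6% called, against 25.6% of all tests in that line, with 13.6% lower. Their part in the ELF3 change was not tested, and in these arrays of whole cultures fewer cells of a kind and less RNA per cell cannot be told apart.

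In SW480, ELF3 rose with MAPK3 knocked down, at 8.65, 7.31, 7.08, 7.06, 6.95 and 7.08 against controls of 7.11 and 7.32, 7.03 and 7.16, and 6.08 to 6.45 (0.79 ± 0.17, 1.72-fold, adjusted p = 0.000426). All 6 arrays were above the controls of their series, and without the 3 SW480 arrays that lie towards SW620 the change was 0.63 (adjusted p = 0.0078). The other SW480 knockdowns changed ELF3 by 0.19 to 0.44 and were not called. Both other ELF3 probe sets were called higher in SW480 with CDK5, MAP2K1, MAP2K2 or MAPK3 knocked down, with changes of 0.48 to 0.80.

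EHF varied most of the 9 genes, with a residual SD of 0.83. It was called once, higher in SW480 with MAPK3 knocked down, at 9.24, 5.27, 8.54, 8.66, 8.61 and 8.67 against controls of 5.97 and 7.44, 7.06 and 7.61, and 6.17 to 6.79 (1.53 ± 0.41, adjusted p = 0.00566). Replicate 2 lay below its controls and all other replicates above theirs, and replicate 1 is one of the arrays that lie towards SW620. Without those arrays the change was 1.16 (adjusted p = 0.0511), and the mean of the 6 probe sets gave 0.55 (adjusted p = 0.074).

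The label series gave EHF opposite pictures. In replicates 3 to 6 of SW480 it was above its controls with every hairpin, by 0.70 (HRAS) to 2.18 (MAPK3), while in replicate 2 the differences were -3.30 to -0.64. In SW620 the differences were -1.87 to -0.805 in replicates 3 to 6 but 0.06 to 1.59 in replicate 2. The fitted SW620 changes, -0.94 to -0.46, were not called. Of the 5 other EHF probe sets, 2 were called lower in SW620 with each of MAP2K1, MAP2K2, MAPK3 and NGFR knocked down, with changes of -1.42 to -0.86. The dimmest was also called lower with MAP2K1 (-0.64), MAPK3 (-0.64) and NGFR (-0.56) knocked down, and the fourth in brightness was called higher with MAPK3 knocked down (0.49 ± 0.12, adjusted p = 0.000827).

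**Figure D4:**
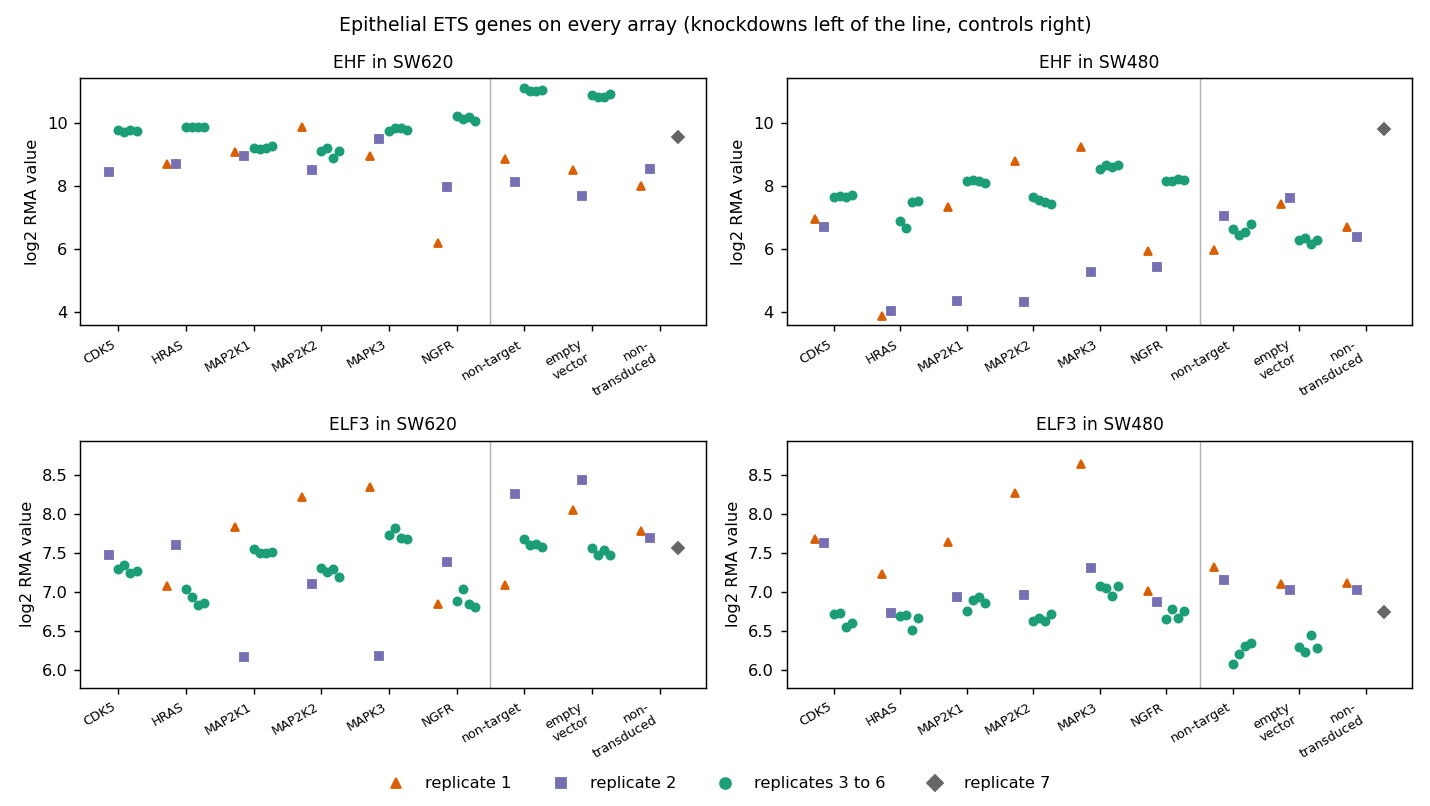
Log2 RMA level of EHF and ELF3 on every array by treatment, with knockdowns left and controls right of the grey line, in SW620 (left) and SW480 (right). Marker shape and colour give the replicate number. In SW480, EHF of replicates 3 to 6 is higher under every hairpin than in the controls of those replicates, and EHF of replicate 2 is lower than its controls of 7.06 and 7.61.

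The difference of a knockdown effect between the lines was tested directly. It was called in 13 of 54 tests, all 13 with the effect in SW620 below that in SW480, against 16.2% of all tests, 8.61% in that direction. The 6 tests share the control arrays of both lines. Some hairpins lowered their targets unequally in the lines. NGFR stood at 9.25% of its controls in SW480 and at 69.8%, not called, in SW620, and HRAS at 27.5% and 60%. The part of this in the line differences was not tested. ELF3 was called for all 6 hairpins, with differences of -0.95 ± 0.24 (NGFR, adjusted p = 0.00149), -0.91 ± 0.24 (MAPK3), -0.83 ± 0.24 (HRAS), -0.79 ± 0.24 (MAP2K1), -0.74 ± 0.25 (CDK5) and -0.71 ± 0.24 (MAP2K2, adjusted p = 0.0391). The MAP2K2 value missed the threshold with a replicate block (adjusted p = 0.053) and, at -0.56 (adjusted p = 0.117), without the SW480 arrays that lie towards SW620. Without the arrays of degraded RNA the MAP2K1 and MAPK3 values were -0.49 (adjusted p = 0.04) and -0.56 (adjusted p = 0.013), and without all 6 arrays that stand apart the MAPK3 value was -0.41 (adjusted p = 0.0614). All 12 values of the other 2 ELF3 probe sets were also called, at -1.03 to -0.50.

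EHF differed between the lines with MAPK3 (-1.99 ± 0.57, adjusted p = 0.00972), MAP2K1 (-1.67 ± 0.57, adjusted p = 0.0434) and NGFR (-1.66 ± 0.57, adjusted p = 0.0256) knocked down. Replicates 3 to 6 alone gave -3.34, -3.45 and -2.55 for these, and replicates 1 and 2 alone gave 0.70, 1.91 and 0.13. The MAP2K1 value missed the threshold with a replicate block (adjusted p = 0.0588), and the NGFR value, at -1.20, when the arrays of degraded RNA were left out (adjusted p = 0.112). With MAPK3 knocked down, ETV1 (-1.20 ± 0.31, adjusted p = 0.00347), ETV4 (-0.82 ± 0.24, adjusted p = 0.0111) and ELK1 (-0.40 ± 0.12, adjusted p = 0.0192) differed too, of which ETV4 was -0.47 and ELK1 -0.24 without the arrays of degraded RNA. ETV5 differed with NGFR knocked down (-0.58 ± 0.18, adjusted p = 0.0123), and 3 of its other probe sets gave -1.58, -1.32 and -0.85.

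By knockdown, these calls numbered 5 of 9 for MAPK3 (17.0% of all genes), 3 for NGFR (23.7%), 2 for MAP2K1 (11.5%) and 1 each for CDK5 (15.6%), HRAS (18.9%) and MAP2K2 (10.4%). The ETV1 responses to the HRAS and NGFR hairpins were not called as different (0.38 ± 0.31 and 0.01 ± 0.31, with 95% intervals of -0.22 to 0.99 and -0.60 to 0.61).

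**Figure D5:**
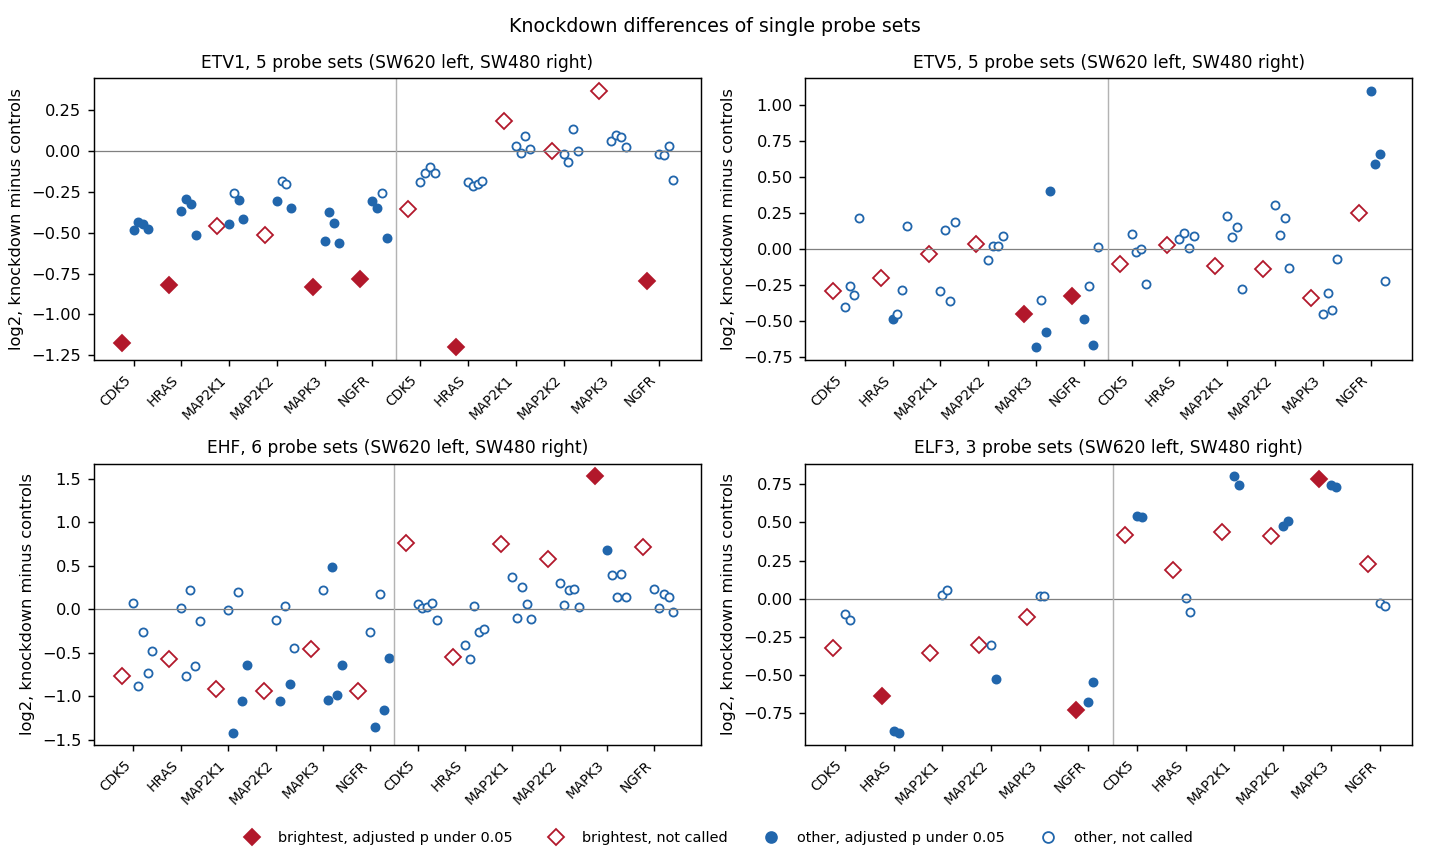
Fitted log2 changes, knockdown minus vector controls, of each probe set of ETV1, ETV5, EHF and ELF3, in SW620 (left of the grey line) and SW480 (right). Red diamonds are the brightest probe set, blue circles the others, and filled markers have an adjusted limma p under 0.05. The 3 ELF3 probe sets are all called lower in SW620 with HRAS or NGFR knocked down and all called higher in SW480 with MAPK3 knocked down, but elsewhere they differ, as with MAP2K1 knocked down in SW620 (-0.35 for the brightest, 0.02 and 0.06 for the others). The brightest ETV1 probe set lies well below the others in SW480 with HRAS (-1.20) and NGFR (-0.79) knocked down.

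ETS1 and ELK3 were higher in SW620 vector controls than in non-transduced SW620 cells. Because the non-transduced arrays of replicate 7 form a label series of their own, this comparison rests on replicates 1 and 2. ETS1 was at 7.48 and 8.49 (replicate 1) and 9.12 and 8.77 (replicate 2) in SW620 vector controls, against 7.28 and 7.38 in non-transduced SW620 cells (1.27 ± 0.35, adjusted p = 0.0195). ELK3 was at 5.80 and 7.06, and 6.70 and 6.27, in vector controls, against 5.06 and 5.67 in non-transduced cells (1.37 ± 0.37, adjusted p = 0.0153). All vector controls lay above the non-transduced array of their replicate. The ETS1 difference was 0.503 (adjusted p = 0.267) when its 3 probe sets were averaged, and the other 2 probe sets gave 0.44 and -0.20, neither called. The second ELK3 probe set gave 0.20 and was not called. Leaving out replicate 1 ended the ELK3 call (0.939, adjusted p = 0.0895), and leaving out any one of replicates 3 to 6 ended both calls (adjusted p of 0.0532 to 0.0659). These 2 of 9 calls in SW620 stand against 5.88% of all genes there. In SW480 no member was called with limma, nor was any gene (0% of all genes). There, 1 member had an unadjusted limma p under 0.05, ETV5 (-0.41 ± 0.20).

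Between the kinds of control, no member was called with limma in either line (0 of 18 tests, with 1 at an unadjusted p under 0.05), against 0.00506% of all genes in SW620 and 0.101% in SW480. ETV1 came closest in SW480, with the non-target arrays above the empty vector arrays by 0.53 ± 0.25 (adjusted p = 0.661, unadjusted p = 0.0391). In replicates 3 to 6 it was at 7.23 to 7.59 in the non-target arrays and at 6.45 to 6.79 in the empty vector arrays of SW480, with no overlap. With the empty vector alone as control, the ETV1 change under NGFR knockdown in SW480 was -0.53 (adjusted p = 0.154).

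Ordered by fitted level, neighbouring treatments mostly stood closer than the residual SD of the gene. Of the 8 steps between neighbours in each line, at most 1 exceeded it, and this held for ETV4 and ELF3 in SW480 and for ELK1 and ELK3 in SW620. For ETV4 in SW480 that step, 1.087, separated NGFR knockdown (7.38), at the bottom, from the next lowest treatment. For ELF3 in SW480, MAPK3 knockdown (7.36) stood 0.347 above the next. Among cells with a vector in SW620, the non-target or empty vector group was the highest for ETV1, ETV4, ETV5, ETS1, ELK3, EHF and ELF3, and MAPK3 knockdown was the lowest for ETV4, ETV5, ETS2 and ELK1.

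Other genes of the same pathways were listed for comparison. Of 18 other ETS genes measured, 19 of 216 tests were called over the 12 knockdown comparisons, 8.33% in SW480 and 9.26% in SW620, below the share of all genes in each line. By mean level these genes lay at percentiles 1 (SPIC) to 85.9 (ETV3) of all genes, with several near the bottom. The 9 members lay at percentiles 59 to 92.3, and the part of level in the low share was not tested. Their median change lay between -0.07 and 0.035. ELK4, another ternary complex factor, rose in 4 comparisons: with NGFR (0.76 ± 0.15), MAPK3 (0.64 ± 0.15) and MAP2K1 (0.53 ± 0.15) knocked down in SW620 and with NGFR in SW480 (0.60 ± 0.15). The repressor ETV6 fell in 3, with HRAS (-0.51 ± 0.13) and NGFR (-0.38 ± 0.13) in SW480 and with MAP2K2 in SW620 (-0.48 ± 0.13). ETV7, ETV3 and ELF2 were called in 3, 2 and 2.

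Regulators of the PEA3 group were called in 18 of 84 tests, 9 higher and 9 lower. The share called was 19% in SW620, against 25.6% of all tests there, and 23.8% in SW480, against 13.4%. DET1, a component of the ubiquitin ligase that degrades PEA3 proteins, rose in SW480 with NGFR (0.57 ± 0.10), HRAS (0.37 ± 0.10) and MAPK3 (0.32 ± 0.10) knocked down and fell in SW620 with MAP2K2 (-0.68 ± 0.10), NGFR (-0.49 ± 0.10) and CDK5 (-0.38 ± 0.11) knocked down. TRIB2 and TRIB1, pseudokinases that dock substrates to the same ligase, were called in 4 and 3 comparisons. Of SRF and its cofactors, partners of the ternary complex factors, 6 of 36 tests were called, 2 higher and 4 lower. These calls made up 11.1% of tests in SW620 (25.6% of all tests) and 22.2% in SW480 (13.4% of all tests).

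Genes known to follow ERK activity were also listed. In SW620, 24 of 48 tests of 8 such genes were lower and 0 higher, with median changes of -0.75 to -0.37. In SW480, 9 of 48 were higher and 3 lower. The share called was 50% in SW620, against 25.6% of all tests there, and 25% in SW480, against 13.4%. DUSP4, a phosphatase that acts on ERK, fell in SW620 with NGFR (-0.92 ± 0.20), MAP2K1 (-0.75 ± 0.20), HRAS (-0.66 ± 0.20) and CDK5 (-0.58 ± 0.21) knocked down and rose in SW480 with MAP2K2 (0.92 ± 0.20), MAPK3 (0.89 ± 0.20), CDK5 (0.76 ± 0.20) and MAP2K1 (0.64 ± 0.20) knocked down. DUSP6, another ERK phosphatase, fell in SW620 with MAPK3 (-1.39 ± 0.24), CDK5 (-1.25 ± 0.26), HRAS (-1.20 ± 0.24) and NGFR (-0.91 ± 0.24) knocked down. EPHA4, an ephrin receptor, fell in 5 SW620 knockdowns, most with HRAS (-1.78 ± 0.20), and rose in 1 SW480 knockdown.

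Immediate early genes, many of which carry serum response elements bound by ELK1 and ELK3 with SRF, were lower in 20 and higher in 1 of 36 SW620 tests, and higher in 4 and lower in 1 of 36 SW480 tests. The share called was 58.3% in SW620, against 25.6% of all tests there. In SW480 it was 13.9%, close to the 13.4% of all tests. MCL1 (-0.46 ± 0.09 with MAP2K2) and IER2 (-1.24 ± 0.17 with MAPK3) each fell in 5 SW620 knockdowns. MCL1 rose in 2 of the other comparisons. FOSB was called in 4 comparisons, 3 higher and 1 lower. For 6 genes known as ETS targets in carcinoma, 11 of 36 SW620 tests were lower and 3 higher, and 2 of 36 SW480 tests were lower and 2 higher. The share called was 38.9% in SW620, against 25.6% of all tests there, and 11.1% in SW480, against 13.4%. PLAU (urokinase) and its receptor PLAUR each fell in 5 SW620 knockdowns. PLAU fell most with MAP2K2 (-1.16 ± 0.14), and PLAUR most with CDK5 (-1.62 ± 0.18) and HRAS (-1.61 ± 0.17). PLAU rose in 2 SW480 knockdowns, and PLAUR was called lower in 6 of the 12 knockdown comparisons over both lines. Neither PLAU nor PLAUR was called with MAPK3 knocked down in SW620. MMP1, a collagenase gene that was dim on these arrays (percentile 5.2 of all genes by mean level), rose there by 0.24 ± 0.07 and with MAP2K2 knocked down by 0.39 ± 0.07.

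As a description of likeness, the genes whose group means followed each member most closely were sought over the 16 groups with a vector, centred within each line. These means share arrays, label series and controls, so the correlations carry no test. ELK3 was the second closest gene to ETS1 (r = 0.84), after PITPNC1 (0.91) and before IL13RA1 (0.82). The genes closest to ELF3 were LMCD1 (0.91), DUSP4 (0.90) and GAREM1 (0.89), and those closest to ETV1 were PPFIBP1 (0.93), LTA4H (0.91) and CLDN1 (0.90). For ETV4 they were ACADVL (0.93), ELP2 (0.92) and PYGO2 (0.91), and for ETV5 they were CDIPT (0.88), SEC14L1 (0.86) and MXRA7 (0.85). The first was YPEL1 for EHF (0.86), REV1 for ETS2 (0.86), MAF1 for ELK1 (0.89) and DCAF8 for ELK3 (0.90). Within the family, EHF and ELF3 correlated at 0.75, and ETV4 with ETV5 at 0.88 over the 8 groups of SW620 but at -0.68 over the 8 groups of SW480. In SW480 the NGFR knockdown group stood far from the others for ETV4, at 7.38 against 8.46 to 8.72. It also had the highest ETV5 level of the groups with a vector (10.23). The correlation without that group was not tested. ELK3 with ELF3 stood at 0.008 in SW620 and -0.92 in SW480, and ETS1 with EHF at 0.57 in SW620 and -0.91 in SW480.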

How the data were processed

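RNA of SW620 and SW480 cells was measured on 101 Affymetrix arrays. The deposited table holds log2 values of 54675 probe sets made by the authors with RMA, per the submitters' processing notes; the version of RMA is not given in the sources used here. The values were used as deposited. Array medians lay between 5.05 and 5.28, and the number of arrays limits the precision.

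Probe sets were named from the platform annotation (41097 with 1 gene, 1801 with several, 11777 with none), and symbols were updated through RefSeq gene identifiers for 41043. For each of 19775 genes the probe set with the highest mean level was kept.

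Groups came from the labels. One model over all arrays (limma 3.58.1 in R 4.3.3, moderated with trend and robust variance) held the 18 groups and label series within line, or label series common to both lines for the contrast of the lines. P-values were adjusted by Benjamini-Hochberg over all genes per comparison. The procedure was tested on simulated data. Figures and sequence searches used Python 3.11.15, pandas 2.3.3 and matplotlib 3.10.9. Promoter windows came from RefSeq (GRCh38.p14), which held one for 6 of the 9 genes in the table used here, taking for each gene the window nearest its annotated start.

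Replicate numbers come from the labels. Deviations of same-numbered arrays from their group means correlated in every pair (lowest r 0.219), so a fit with the number as a block was run, and once label series was removed the median correlations were -0.223 to -0.023.

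The members and all gene lists were chosen with earlier results of these data known. All 9 members are named. From the other lists, the text names the genes called most often, 5 for other ETS genes and 3 for the rest, and for likeness the 3 genes of highest correlation. Markers were used to check cell types, and those of colorectal epithelium were also set beside the ELF3 changes in SW620. Alternatives changed the model terms, the controls, the probe sets, a filter on dim genes, a second quantile normalisation, the averaging of arrays by name ending and the arrays left out. Leaving out the SW480 arrays that lie towards SW620, leaving out all 6 arrays that stand apart, and using replicates 1 and 2 only were chosen after seeing the data.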

Additional observations from a re-analysis of the deposited data

Results flagged for a closer look

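In 37 of 144 combinations of a gene and a group, 1 array stood far from the others of its group by Dixon's test, and all of these arrays were replicate 1 or 2. Chance gives about 1 in 20 only where all arrays of a group come from the same population. Here the arrays differ in label series within each group, so that rate is no reference for this count. The part of label series in these values was not tested.

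For ETV1, replicate 2 was low under CDK5 knockdown in SW620 (5.03) and under MAP2K1 (4.93) and MAPK3 (5.04) knockdown in SW480. For ETV4, replicate 2 was high under CDK5 knockdown (8.23) and replicate 1 under MAP2K1 knockdown (9.41) in SW620. ETV5 was low in replicate 2 of SW620 with CDK5 (8.67), HRAS (8.62), MAP2K1 (8.75), MAP2K2 (9.08), MAPK3 (7.82) and NGFR (8.62) knocked down and with the non-target hairpin (8.90), and in replicate 2 of SW480 with the non-target hairpin (9.74).

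ETS1 was low in SW620 in replicate 2 of CDK5 (6.75) and HRAS (7.65) knockdown and in replicate 1 of the empty vector (7.48). ETS2 was low in replicate 2 of CDK5 knockdown, at 8.33 in SW620 and 6.98 in SW480. ELK1 was high in replicate 2 of CDK5 knockdown, at 9.61 in SW620 and 9.54 in SW480, and in replicate 1 of MAP2K1 (9.29) and MAPK3 (9.16) knockdown in SW620. ELK3 was low in replicate 2 of CDK5 knockdown, at 4.58 in SW620 and 6.88 in SW480, and of HRAS knockdown in SW620 (6.11).

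EHF was low in replicate 2 of CDK5 knockdown in SW620 (8.45) and of MAP2K1 (4.34), MAP2K2 (4.32) and MAPK3 (5.27) knockdown in SW480. ELF3 was high in SW620 in replicate 2 of HRAS (7.61) and replicate 1 of MAP2K2 (8.22) knockdown, and low there in replicate 2 of MAP2K1 (6.17) and MAPK3 (6.18) knockdown, both arrays of degraded RNA. In SW480 it was high in replicate 1 of HRAS (7.23), MAP2K1 (7.64), MAP2K2 (8.27) and MAPK3 (8.65) knockdown, the last 3 being arrays whose line score lies towards SW620.

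By the limma test of the difference, 13 knockdown effects differed between SW620 and SW480. They were ELF3 with CDK5 (-0.74), HRAS (-0.83), MAP2K1 (-0.79), MAP2K2 (-0.71), MAPK3 (-0.91) and NGFR (-0.95) knocked down, EHF with MAP2K1 (-1.67), MAPK3 (-1.99) and NGFR (-1.66), ETV1 (-1.20), ETV4 (-0.82) and ELK1 (-0.40) with MAPK3, and ETV5 with NGFR (-0.58).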

How the results depend on the processing

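The counts below are of ETS genes called, in knockdowns in SW620 (20 as reported), in knockdowns in SW480 (9), in line differences of knockdown effects (13), in vector controls against non-transduced cells (2), in non-target against empty vector arrays (0) and between the lines (7). Without a term for label series they were 2, 2, 0, 0, 0 and 4. With only the compared groups in the model they were 34, 22 and 28 for the first 3, 4 for the vector and 3 for the non-target comparison. With the non-target hairpin alone as control, 6 line differences were called. The mean of all probe sets gave 16 in SW480 and 1 for the vector. Averaging arrays in pairs by name ending gave 9 in SW620, 3 in SW480, 0 line differences and 0 for the vector. Replicates 3 to 6 alone gave 44, 35 and 46 for the first 3 and 5 for the non-target comparison. Without the arrays of degraded RNA, 14 were called in SW480, and without all 6 arrays that stand apart, 32 in SW620 and 21 line differences. Replicates 1 and 2 alone gave 0, 0, 0 and 0 for the first 4 and 2 between the lines, and turned the line differences of EHF to 1.907 (MAP2K1), 0.699 (MAPK3) and 0.133 (NGFR). Leaving out one replicate number at a time gave 14 to 35 in SW620, 6 to 20 in SW480, 4 to 28 line differences, 0 to 2 for the vector, 0 to 0 for the non-target comparison and 6 to 7 between the lines. The cause of these shifts was not tested.

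Of the 51 called results of single genes, 51 were still called with the filter on dim genes, 46 with the replicate block, 19 with arrays averaged in pairs and 8 without label series. The replicate block gave family counts of 17, 9 and 11 for the first 3, and it ended no call other than the 5 given with the results. None of the 29 called knockdown changes was called under all 20 alternatives, and the line difference of ELK3 was. Vector controls and non-transduced cells could not be compared with replicates 3 to 6 alone, because no non-transduced array has those numbers.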
